A study of Mus musculus with 12 samples.

Results

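The liver is a main site of amino acid breakdown, and the 47 genes described here encode enzymes of that work: the urea cycle and the pathways that break down tryptophan, methionine, cysteine, histidine, serine, glycine, tyrosine, glutamate, lysine, proline and the branched-chain amino acids. They were taken by symbol from a list of such enzymes, and all 47 were found among the 13554 genes of the table. The list was chosen with earlier results of these data known, which limits every comparison of members with all genes below. RNA was measured in liver from wild-type male C57Bl/6J mice, with 12 libraries in 4 groups of 3, each on postoperative day 3 after partial hepatectomy, in which part of the liver is cut away and the remnant regrows. No unoperated liver is among the 12 libraries. PH70 is a resection of 70% of the liver and PH80 one of 80%. PH80_HC is the resection of 80% in an arm labelled HC, and PH80_G+H the resection of 80% with G-CSF, a growth factor for granulocytes, and HNF4a, a transcription factor of hepatocytes. The labels do not spell out HC, and how much G-CSF and HNF4a was given, when and by which route, like the age of the mice, is not given. The comparisons ask how the larger resection differed from the smaller one, and how each of the other PH80 arms differed from PH80. Separate animals are not named in the labels, so the p-values below measure spread among libraries, which may be technical.

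As background, amino acid breakdown includes loss of the amino group, at the first step or a later one. The ammonia so released is made into urea in periportal hepatocytes, those nearest the incoming blood. Carbamoyl phosphate is made from ammonia in the mitochondrion, joined to ornithine to give citrulline, and carried through argininosuccinate and arginine to urea and ornithine. The carbon skeletons go to glucose, ketone bodies or the citric acid cycle, and several of these enzymes, such as those of tryptophan and tyrosine breakdown, are known as inducible by glucocorticoid hormones, glucagon or feeding on protein. Glutamine synthetase, encoded by Glul in the hepatocytes around the central vein, takes up the ammonia that escapes the urea cycle.

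Each library holds 1 value per gene, a read count divided by a size factor, called normalised reads here. Between 9.72 M and 44.5 M reads (M, mega) were recovered per library, and every member other than Ass1 had at least 435 reads in every library. Libraries differed in how the values depended on transcript length, by up to -0.277 per doubling of length (PH80_HC replicate 3) and 0.228 (PH80_G+H replicate 2), on the log2 scale. In sum, PH80_HC replicates 1 and 3 also carried 29.2 M and 30.5 M normalised reads, and PH80_HC replicate 2 21.4 M, against 21.1 M in the lowest library. The 7 hepatocyte markers, which include albumin, were abundant throughout, with summed values from 2609380 to 2958750 in PH80 to 3350890 to 5487230 in PH80_HC. Because this is bulk liver, fewer hepatocytes and less RNA per hepatocyte cannot be told apart.

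After the larger resection the group as a whole lay lower: 41 of the 47 genes had a negative log2 difference between PH80 and PH70, against 6113 of the 12570 genes tested. The median was -0.39 over the members, against 0.01 over all tested genes. Differences are on the scale of log2(value + 1), and a gene was called at an adjusted p under 0.05. At that threshold 4 members fell, namely Tdo2, Csad, Sardh and Bckdha, and none rose, while 2.73% of all tested genes were called lower and 1.09% higher. In 20 members every PH80 library lay below every PH70 library, and in 1, Ass1, every PH80 library lay above. The same lack of overlap was found downwards in 14.2% of all tested genes and upwards in 1615 of the 12570. Ass1 had only 20 to 40 normalised reads per library, and its values are uncertain, as described below. Next on the positive side, Nags and Arg1 had log2 differences of 0.43 and 0.28. Most single members did not pass the threshold, and 17 of the 47 had an unadjusted p under 0.05, against 21.4% of all genes. DESeq2 on the recovered reads called 12 members lower, against 7.56% of all genes called in either direction, and limma after removal of the trends on length and GC content called 10, against 5.23%. In both of these the added members included Otc, Ido2, Kynu, Dmgdh, Cdo1 and Agxt. The count rests on single libraries: without PH70 replicate 2 limma called 0 members, without PH70 replicate 1, PH80 replicate 1, PH80 replicate 2 or PH80_G+H replicate 3 it called 2, and without PH80_HC replicate 3 it called 6.

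**Figure D1:**
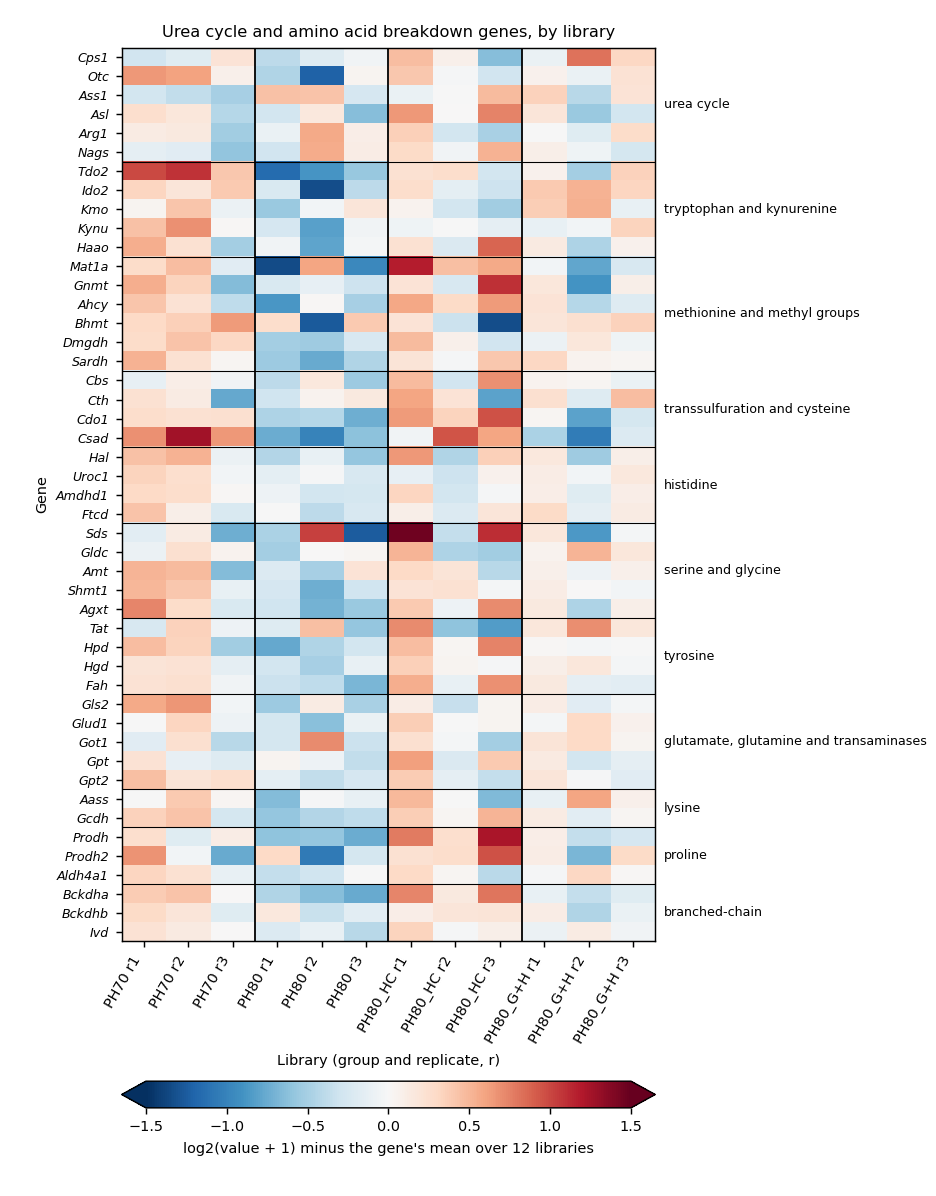
Each row is a gene, in the order of the role groups named at the right, and each column a library; colour is log2(value + 1) minus the gene's mean over the 12 libraries, red above and blue below. The PH80 columns are mostly blue, with PH80 the lowest of the 4 group means in 36 of 47 genes (22 with libraries at the same total), while the urea cycle rows at the top are mixed.

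PH80 had the lowest of the 4 group means in 36 of the 47 members, against 27.9% of all tested genes. With libraries brought to the same total, PH80 was the lowest in 22 members, against 11.2% of all genes, and PH80_HC in 16, against 52.7%. The highest mean was in PH80_HC for 21 members (29.3% of all genes), in PH70 for 16 (27.4%), in PH80_G+H for 8 (17.0%) and in PH80 for 2, Arg1 and Ass1 (26.3%). At the same total these counts were 13, 20, 10 and 4, against 8.84%, 26.9%, 16.8% and 47.5% of all genes. One library of PH70 stood somewhat apart: replicate 3 had the lowest value of its group in 36 members, against 40.9% of all genes. The median over members of the deviation from each gene's mean was -0.09 in that library, against 0.24 and 0.29 in the other PH70 libraries and -0.28 to -0.34 in PH80. In sum the 47 genes took 2.14% to 2.56% of a library's normalised reads in PH70, 1.85% to 2.09% in PH80, 1.94% to 2.33% in PH80_HC and 2.17% to 2.37% in PH80_G+H, so by this measure PH70 and PH80 did not overlap.

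The urea cycle genes went both ways. Of the 6, 3 had negative and 3 positive differences between PH80 and PH70, the median was 0.08, and none was called. Cps1 makes carbamoyl phosphate and is the entry of ammonia into the cycle. It had 43999, 47321 and 62060.3 in PH70, 40912, 47045 and 51909 in PH80, 74136, 56732 and 34498 in PH80_HC and 50355, 94839.6 and 66747 in PH80_G+H, and the PH80 values lie within the span of the PH70 ones apart from the lowest (log2 difference -0.12, SE 0.34, adjusted p = 0.862). Otc, which joins carbamoyl phosphate to ornithine, had 10885, 10546 and 7359 in PH70, 5091, 3009 and 7173 in PH80, 9203, 6888 and 5696 in PH80_HC and 7254, 6506 and 8059 in PH80_G+H. All 3 PH80 libraries were below all 3 of PH70 in Otc, with replicate 2 the lowest, but the difference missed the threshold (log2 difference -0.98, SE 0.29, adjusted p = 0.0852). It passed with DESeq2, with length and GC trends removed and without PH80 replicate 3, where the adjusted p went as low as 0.0303.

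Asl splits argininosuccinate into arginine and fumarate. Its values were 8451, 7997 and 5271 in PH70, 5870.2, 7885 and 4560.2 in PH80, 11102, 7131 and 11828 in PH80_HC and 8050.3, 4818 and 5831 in PH80_G+H, and the groups overlapped (log2 difference -0.25, SE 0.29, adjusted p = 0.639). Arg1, the arginase that releases urea, had 29796, 30147 and 19063 in PH70, 25534, 40621 and 29275 in PH80, 35105, 22511 and 19519 in PH80_HC and 27251, 24178 and 32968 in PH80_G+H, with the highest value of all in PH80 replicate 2 (log2 difference 0.28, SE 0.30, adjusted p = 0.622). Nags makes N-acetylglutamate, without which Cps1 is inactive. It had 2834, 2768 and 2069 in PH70, 2559.6, 4594 and 3367 in PH80, 3803, 3009.8 and 4484 in PH80_HC and 3302, 2981 and 2597 in PH80_G+H (log2 difference 0.43, SE 0.23, adjusted p = 0.306), and an antisense gene covers 14.9% of its transcript windows on the other strand. In PH80_HC and PH80_G+H the differences of these genes from PH80 also went both ways, with medians over the 6 of 0.15 and -0.06 and no call.

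Ass1, which joins citrulline to aspartate, read 23.6, 21.9 and 20.1 in PH70, 39.4, 38.9 and 24.0 in PH80, 26.7, 28.4 and 40.2 in PH80_HC and 36.8, 21.3 and 33.3 in PH80_G+H, far below its neighbours in the cycle. These values are uncertain, because a processed pseudogene in the annotation is an almost exact copy: Gm5424 (chr10:62071123-62072362, plus strand, GRCm38) differs from Ass1 in 6 of 1239 coding bases, 99.52% identity. Of all 50-base windows of the Ass1 transcript, 55.3% occur in Gm5424 too, and Gm5424 itself is not analysed here. The stretch of coding bases 361 to 420 shows how little separates them, with the differing base in capitals and all else the same.
Ass1: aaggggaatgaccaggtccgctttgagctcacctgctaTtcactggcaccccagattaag
Gm5424: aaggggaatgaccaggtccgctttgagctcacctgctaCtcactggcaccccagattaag
Reads from such stretches fit both genes, and how the counting dealt with them is not given. The PH80 libraries lay above those of PH70 (log2 difference 0.59, SE 0.33, adjusted p = 0.315), which is a statement about the reads assigned to Ass1 only.

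Between genes, levels can be compared per kilobase of transcript. On that scale, as means over the 12 libraries, Gnmt came first with 41062 normalised reads per kb, then Hpd with 24481, Arg1 with 18956, Cps1 with 10059 and Cdo1 with 9972. Otc stood at 2438, Asl at 3067 and Nags at 1178, so Arg1 and Cps1 were the highest of the 5 urea cycle genes other than Ass1, whose own level is uncertain. At the low end were Csad (576), Prodh (501), Ido2 (330) and Ass1 (17.4). Members called in a comparison came from the whole of this span, from Cdo1 in the top 5 to Prodh and Csad near the bottom. Sds, Mat1a and Bhmt were high in some libraries and low in others of a single group, and their places in the order are the least certain: in PH80 alone the highest library exceeded the lowest by 4.82-fold, 3.81-fold and 3.13-fold.

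**Figure D2:**
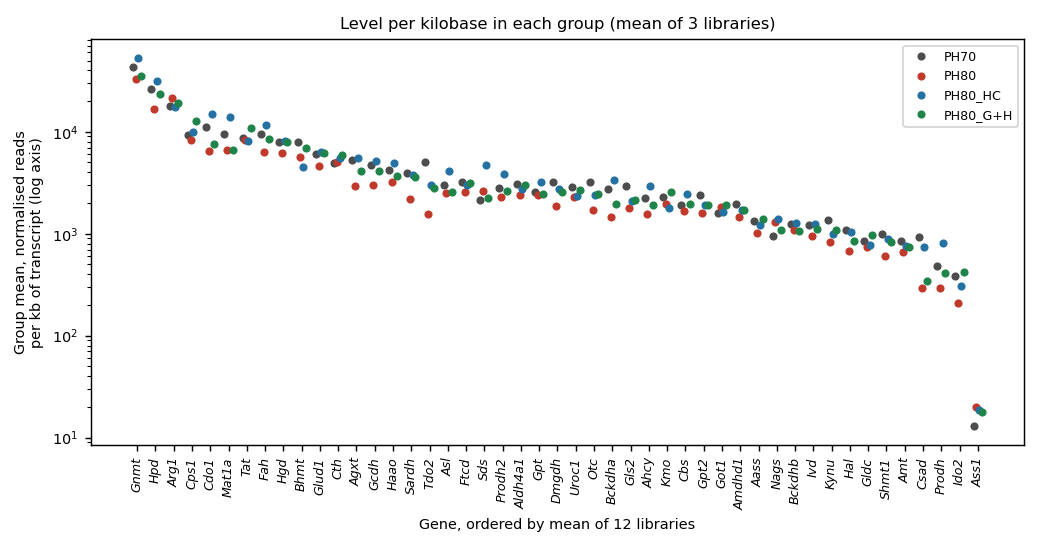
Points are group means of 3 libraries in normalised reads per kb of transcript on a log axis, with genes ordered by their mean over 12 libraries. Gnmt leads at 41062 and Ass1 is last at 17.4; the red PH80 points are the lowest in most columns.

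All 5 genes of tryptophan breakdown had lower means in PH80 than in PH70, with a median log2 difference of -0.75. Of the 5, 3 were lower without overlap, as were 14.2% of all tested genes. Tdo2, tryptophan 2,3-dioxygenase, opens the indole ring and is the first and rate-limiting step of the kynurenine pathway in hepatocytes. It had 19177, 20387 and 12735 in PH70, 4337, 5231 and 6469 in PH80, 11282, 11552 and 7971 in PH80_HC and 10072, 6742 and 12203 in PH80_G+H. The PH80 libraries were all far below those of PH70, and the libraries of the other arms lay between them. Tdo2 (chr3, minus strand, protein coding, 81957090 to 81976202 on GRCm38) fell 3.24-fold, the largest change of any member (log2 difference -1.69, SE 0.28, adjusted p = 0.00698). The call held in every other setting tried but one, without PH70 replicate 2 (adjusted p = 0.0522). Against PH80 its log2 difference was 0.94 in PH80_HC (adjusted p = 0.128) and 0.83 in PH80_G+H (adjusted p = 0.278), neither called by limma; PH80_HC passed with DESeq2 and with length and GC trends removed.

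Ido2 catalyses the same reaction from a separate gene. It had 1258, 1144 and 1325 in PH70, 861, 400 and 762 in PH80, 1207, 906 and 812 in PH80_HC and 1317, 1447 and 1252 in PH80_G+H. Ido2 was lowest in PH80 replicate 2, no PH80 library reached PH70 or PH80_G+H, and its differences just missed the threshold in PH80 against PH70 (log2 difference -0.95, SE 0.25, adjusted p = 0.0521) and stood at 1.06 in PH80_G+H against PH80 (adjusted p = 0.149). In the next steps Kynu, kynureninase, had a difference of -0.75 (adjusted p = 0.0866) between PH80 and PH70, Haao, which makes the precursor of quinolinate, -0.38, and Kmo, the kynurenine hydroxylase, -0.26.

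The 6 genes of methionine and methyl group use were lower in PH80 as well, with a median of -0.70 and 1 call. Sardh oxidises sarcosine, the product of Gnmt, back to glycine in the mitochondrion. It had 21039.6, 17190.2 and 14956 in PH70, 10046, 8674 and 10688 in PH80, 16753, 14441 and 19357 in PH80_HC and 18174, 15225 and 14981 in PH80_G+H. PH80 lay below the 3 other groups with no overlap, and Sardh (chr2, minus strand) fell 1.80-fold from PH70 (log2 difference -0.85, SE 0.22, adjusted p = 0.0460). This call is fragile: it was lost in 17 of 24 alternatives, among them edgeR and the omission of any PH70, PH80 or PH80_G+H library or of PH80_HC replicate 1, with adjusted p up to 0.153. Against PH80 its log2 differences were 0.78 in PH80_HC and 0.72 in PH80_G+H (adjusted p = 0.110 and 0.242), both called by DESeq2. The 139 bases from -250 to -112 before the RefSeq start of Sardh (GRCm38.p6, chr2:27247415-27247553, minus strand), shown because it was called, held no searched motif.
Sardh: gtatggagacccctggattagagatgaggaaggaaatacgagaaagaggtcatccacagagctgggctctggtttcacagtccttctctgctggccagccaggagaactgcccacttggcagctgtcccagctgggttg
Dmgdh, the enzyme before it, which demethylates dimethylglycine, read 9187, 10167 and 9424 in PH70 and 5306, 5229 and 6423 in PH80 (log2 difference -0.77, SE 0.21, adjusted p = 0.0601).

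Mat1a makes S-adenosylmethionine, the methyl donor, and is the liver's own form of that enzyme. It had 34653, 39433 and 25401 in PH70, 11319, 43129 and 14629.5 in PH80, 64793, 39160 and 42355 in PH80_HC and 27828, 16667 and 24226 in PH80_G+H. PH80 replicate 2 stood above every PH70 library and the other PH80 libraries below every one, so that the groups overlapped (log2 difference -0.76, SE 0.43, adjusted p = 0.322). Its difference between PH80_HC and PH80 was 1.30 (adjusted p = 0.177), and was called only without that library (adjusted p = 0.0300). PH80 replicate 2 was also the library with the highest summed neutrophil markers, 90846, against 21262 and 12367 in the rest of PH80; the part of this in the Mat1a value was not tested. Gnmt, which uses up methyl groups on glycine, differed by -0.30, Bhmt, which remethylates homocysteine from betaine, by -0.63, and Ahcy, which splits S-adenosylhomocysteine, by -0.53 between PH80 and PH70. Ahcy shares 77.0% of its 50-base windows with other genes, mostly 1 copy, so its level is uncertain.

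Cysteine breakdown held the second largest difference of any member, that of Csad. Cdo1, cysteine dioxygenase, oxidises cysteine to cysteine sulfinate, and Csad decarboxylates that product on the way to taurine, which the liver joins to bile acids. Csad had 1842, 2736 and 1795 in PH70, 679, 567 and 747 in PH80, 1102, 2201 and 1728 in PH80_HC and 824, 551 and 992 in PH80_G+H. Its values in PH80 and PH70 were far apart, PH80_HC was above PH80 in each library, and PH80_G+H overlapped PH80. Csad (chr15, minus strand) fell 3.15-fold after the larger resection (log2 difference -1.66, SE 0.28, adjusted p = 0.00761), a call lost only without PH70 replicate 2 (adjusted p = 0.0578). In PH80_HC it rose 2.44-fold over PH80 (log2 difference 1.29, SE 0.28, adjusted p = 0.0461), a call just under the threshold that was lost in 16 of 24 alternatives (adjusted p up to 0.131). The omissions that ended it were those of PH70 replicate 1, PH70 replicate 2, PH70 replicate 3, PH80 replicate 1, PH80 replicate 2, PH80 replicate 3, PH80_HC replicate 2, PH80_HC replicate 3, PH80_G+H replicate 1 and PH80_G+H replicate 3. In PH80_G+H its difference from PH80 was 0.21, with an adjusted p of 0.812.

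RefSeq lists 2 starts for Csad, the gene with the second largest fall. Before the inner one, the 235 bases from -250 to -16 lie outside every annotated exon (GRCm38.p6, chr15:102189059-102189293, minus strand); they held none of the motifs searched below, so no base is in capitals.
Csad: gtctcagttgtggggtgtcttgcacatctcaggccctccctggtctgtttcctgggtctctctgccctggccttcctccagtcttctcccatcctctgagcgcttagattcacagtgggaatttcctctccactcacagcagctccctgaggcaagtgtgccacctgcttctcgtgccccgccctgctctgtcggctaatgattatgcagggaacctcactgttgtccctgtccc
The table has 1 value per gene and cannot tell the starts apart.

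The 2 genes before cysteine, Cbs and Cth, carry sulfur from homocysteine to cysteine. Their differences between PH80 and PH70 were -0.23 and 0.10, with overlapping groups.

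Cdo1 had 17818, 17459 and 17625 in PH70, 10787, 11056 and 8951 in PH80, 23239, 18720.1 and 28985 in PH80_HC and 15225, 8567 and 12429.7 in PH80_G+H. The PH70 libraries were nearly equal, those of PH80 lay below them, and all PH80_HC libraries lay above every library of the other groups. Cdo1 (protein coding, minus strand) rose 2.28-fold in PH80_HC over PH80 (log2 difference 1.19, SE 0.25, adjusted p = 0.0397), a call lost in 12 of 24 alternatives with adjusted p up to 0.152. It was lost on omission of PH70 replicate 1, PH70 replicate 2, PH80 replicate 1, PH80 replicate 2, PH80 replicate 3, PH80_HC replicate 1, PH80_HC replicate 3 and PH80_G+H replicate 3. The difference between PH80 and PH70 was -0.79 (adjusted p = 0.0971), below the threshold with limma and past it with DESeq2 and with length and GC trends removed. PH80_G+H stood at a log2 difference of 0.20 from PH80 (adjusted p = 0.802).

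Histidine breakdown was lower in all 4 genes, with a median of -0.35 and no call. Hal, histidase, removes ammonia from histidine; it had 6345, 6718 and 4384 in PH70, 3434, 4309 and 3112 in PH80, 7298, 3415 and 5978 in PH80_HC and 5215, 3217 and 4962 in PH80_G+H. No PH80 library reached the lowest of PH70, but the spread was wide (log2 difference -0.67, SE 0.29, adjusted p = 0.202). Uroc1 and Amdhd1, the next steps, differed by -0.32 and -0.39, and Ftcd, which hands the formimino group to folate, by -0.31. The 250 bases before the start of Hal (GRCm38.p6, chr10:93488518-93488767, plus strand) are shown as those of a member with matches to 2 searched motifs, in capitals: TTGCNNAA on the plus strand of the gene and TATAAA on the opposite one.
Hal: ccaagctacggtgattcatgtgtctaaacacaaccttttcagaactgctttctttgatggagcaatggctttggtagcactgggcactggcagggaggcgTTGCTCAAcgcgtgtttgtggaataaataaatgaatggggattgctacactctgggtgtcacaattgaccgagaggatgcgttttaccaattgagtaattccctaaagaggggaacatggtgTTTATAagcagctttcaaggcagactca

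Among the serine and glycine genes 4 of 5 had negative differences, with a median of -0.28. Shmt1, the cytosolic enzyme that turns serine and glycine into each other, had 3263, 3044 and 2127 in PH70, 1938, 1384 and 1878 in PH80, 2668, 2711 and 2262 in PH80_HC and 2485, 2319 and 2245 in PH80_G+H. PH80 was below all other libraries (log2 difference -0.69, SE 0.20, adjusted p = 0.0728), and the difference was called by DESeq2 and on omission of PH70 replicate 3, the lowest of its group, with adjusted p down to 0.0169. Agxt, which removes glyoxylate with alanine as the amino donor, differed by -0.78 (adjusted p = 0.132). Amt and Gldc of the glycine cleavage system differed by -0.28 and -0.23. Sds, serine dehydratase, a gene known to respond to glucagon and protein intake, was too variable to compare: it had 2319, 6561 and 1362 in PH80 and 8906, 2517 and 6996 in PH80_HC (log2 difference 0.97, SE 0.54, adjusted p = 0.449), and 28.9% of its windows also occur in 2 genes on the opposite strand, Plbd2 with 25.2% foremost.

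Of the tyrosine genes, Tat, the aminotransferase at the entry and a classical glucocorticoid target, had a difference of only -0.11 between PH80 and PH70, with values of 17105, 25716 and 19199 in PH70 and 17764, 27826 and 13604 in PH80. Fah, which ends the pathway by splitting fumarylacetoacetate, had 16029.6, 16274 and 13295 in PH70, 11049, 10564 and 8562 in PH80, 20038, 12796 and 22133 in PH80_HC and 15299, 12549 and 12293 in PH80_G+H. PH80 lay below every other library of Fah, yet the difference was not called (log2 difference -0.60, SE 0.24, adjusted p = 0.176). Hpd and Hgd, the dioxygenases between them, differed by -0.59 and -0.38. In PH80_HC the differences of Hpd and Fah from PH80 were 0.91 and 0.84 (adjusted p = 0.180 and 0.121), not called by limma; DESeq2 called both, and Fah passed with length and GC trends removed as well.

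In the glutamate and transaminase group the median was -0.40. Gls2, the liver glutaminase that frees ammonia next to Cps1, had 8264, 8813 and 5387 in PH70, 3801, 6046 and 3975 in PH80, 6005, 4371 and 5716 in PH80_HC and 6032, 4948 and 5466 in PH80_G+H. It was lower in PH80 replicates 1 and 3 than in any PH70 library, with replicate 2 inside the PH70 span (log2 difference -0.70, SE 0.24, adjusted p = 0.125). Gpt2 and Glud1, the mitochondrial alanine aminotransferase and glutamate dehydrogenase, differed by -0.56 and -0.40, each without overlap, and Gpt and Got1, the cytosolic aminotransferases, by -0.10 and 0.16.

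Both lysine genes were lower in PH80 with no overlap, as were 14.2% of all tested genes. Gcdh, glutaryl-CoA dehydrogenase, had 11364, 12048 and 7443 in PH70, 5988, 6619 and 6853 in PH80, 11571, 9173 and 12761 in PH80_HC and 9746, 8029.9 and 9119 in PH80_G+H (log2 difference -0.64, SE 0.22, adjusted p = 0.127), with PH80 below every other library. Aass, the first enzyme of lysine breakdown, differed by -0.40 (adjusted p = 0.440).

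Prodh, proline dehydrogenase, starts proline breakdown in the mitochondrion. It had 2724, 2007 and 2469 in PH70, 1496, 1530.4 and 1365 in PH80, 3933, 2727 and 5324 in PH80_HC and 2436, 1777 and 1915 in PH80_G+H. The PH80 libraries were the 3 lowest and close together, and the lowest PH80_HC library was level with the highest of PH70. Prodh (chr16) rose 2.63-fold in PH80_HC over PH80, the largest called change of a member in that comparison (log2 difference 1.40, SE 0.23, adjusted p = 0.0173). The call was lost in 4 of 24 alternatives, with adjusted p up to 0.0964, among them the omission of PH80 replicate 1 and PH80_HC replicate 1. Between PH80 and PH70 it differed by -0.70 (adjusted p = 0.110), without overlap. As the member with the largest rise in PH80_HC, Prodh is shown with the 148 bases from -250 to -103 before its RefSeq start (GRCm38.p6, chr16:18089293-18089440, minus strand), again without a searched motif.
Prodh: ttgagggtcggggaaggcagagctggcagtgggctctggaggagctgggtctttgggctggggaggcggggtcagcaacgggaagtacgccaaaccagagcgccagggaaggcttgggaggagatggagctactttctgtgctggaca
Prodh2, for hydroxyproline, and Aldh4a1, the step after both, differed by -0.30 and -0.37, and 35.5% of the windows of Aldh4a1 belong to a second annotated gene on the same strand.

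Bckdha encodes the E1 alpha subunit of the branched-chain ketoacid dehydrogenase, the committed step of leucine, isoleucine and valine breakdown. It had 5567, 5751 and 4297 in PH70, 3109.5, 2731 and 2522 in PH80, 7064, 4722 and 7460.3 in PH80_HC and 3942, 3319 and 3764 in PH80_G+H. PH80 was below every library of the other groups, and PH80_HC above PH80_G+H throughout. Bckdha (chr7:25629946-25658981, minus strand, GRCm38) fell 1.86-fold after the larger resection (log2 difference -0.89, SE 0.21, adjusted p = 0.0326) and was 2.26-fold higher in PH80_HC than in PH80 (log2 difference 1.18, SE 0.21, adjusted p = 0.0237). It was, with Csad, 1 of the 2 members called in both comparisons, which share the PH80 libraries. The first call was lost in 7 of 24 alternatives, on omission of PH70 replicate 1, PH70 replicate 2, PH80 replicate 1, PH80 replicate 2, PH80 replicate 3 and PH80_G+H replicate 3 among them, and the second in 6, on omission of PH80 replicate 1, PH80 replicate 3, PH80_HC replicate 1 and PH80_HC replicate 3 among them, with adjusted p up to 0.152 and 0.112. B3gnt8 lies over 50.8% of the Bckdha windows on the opposite strand, but held only 3.1 to 35.7 normalised reads per library.

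Bckdhb, the E1 beta subunit, differed by -0.20 and 0.27 in the same comparisons, neither called, and Ivd, isovaleryl-CoA dehydrogenase of the leucine route, by -0.36 and 0.38. The subunits of 1 complex were therefore called differently, although the difference between them was not tested.

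**Figure D3:**
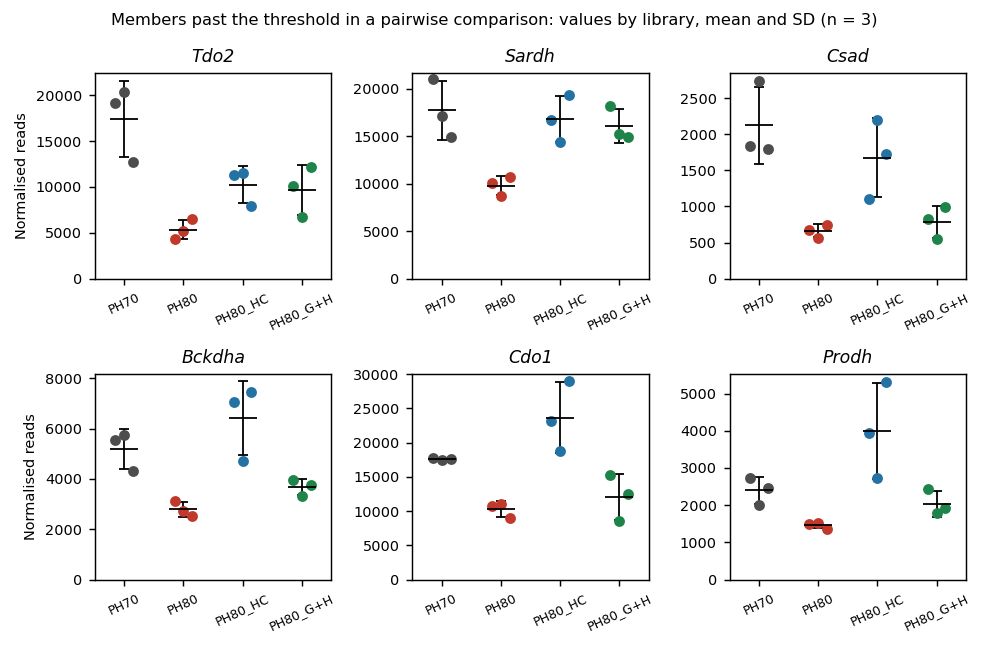
Points are single libraries in normalised reads on linear axes that start at 0; bars give the mean and SD of 3 libraries. In each of the 6 genes every PH80 library lies below every PH70 library; PH80_HC lies above PH80 throughout, and PH80_G+H overlaps PH80 in Csad and Cdo1.

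Set against PH80, the HC arm had positive log2 differences in 41 of 47 members, against 6473 of the 12570 genes tested. The median was 0.46, against 0.01 over all genes. At the threshold 4 rose, namely Prodh, Bckdha, Cdo1 and Csad, against 0.652% of all tested genes called higher, and none fell. In 15 members every PH80_HC library exceeded every PH80 library, against 8.26% of all genes, and 17 had an unadjusted p under 0.05, against 14.3%. DESeq2 called 11 members, against 4.0% of all genes in either direction, and limma with length and GC trends removed called 6, against 2.13%. The cysteine genes had the highest median of the role groups, 0.87, followed by proline with 0.83 and the methyl group genes with 0.68, and the urea cycle the lowest with 0.15. Normalisation matters here: with every library brought to the same total the median of all genes moved by -0.33 and that of the members from 0.46 to 0.13. Relative to all genes the members stood 0.45 higher under both scalings. This had to be so, since such a scaling shifts every gene of a library alike, and it is no check of the result. Under that scaling 20 members were below 0, against 6, and Prodh and Bckdha were still called. The same scaling moved the median of all genes by 0.12 between PH80 and PH70, by -0.21 between PH80_HC and PH70 and by -0.23 between PH80_HC and PH80_G+H. Among single omissions, limma called 0 members without PH80 replicate 1, 1 without PH80 replicate 3, PH80_HC replicate 1 or PH80_HC replicate 3, and 2 without PH70 replicate 1, PH70 replicate 2 or PH80_G+H replicate 3; it called 0 when only the 6 libraries of the comparison were fitted.

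The arm with G-CSF and HNF4a had positive log2 differences from PH80 in 42 of 47 members, against 6285 of the 12570 genes tested. The median was 0.30, against -2.0e-05 over all genes. In 14 members its libraries lay wholly above those of PH80, against 8.82% of all genes. None was called by limma, where 0.119% of all genes were; 4 members had an unadjusted p under 0.05 (Tdo2, Ido2, Sardh and Shmt1), against 10.5% of all genes. EdgeR called 0 and DESeq2 2, Ido2 and Sardh, against 1.61% of all genes. Ido2 had the largest log2 difference, 1.06, then Tdo2 with 0.83 and Sardh with 0.72. By role group the medians ran from 0.45 for lysine and 0.43 for tryptophan and tyrosine to 0.21 for cysteine and -0.06 for the urea cycle.

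**Figure D4:**
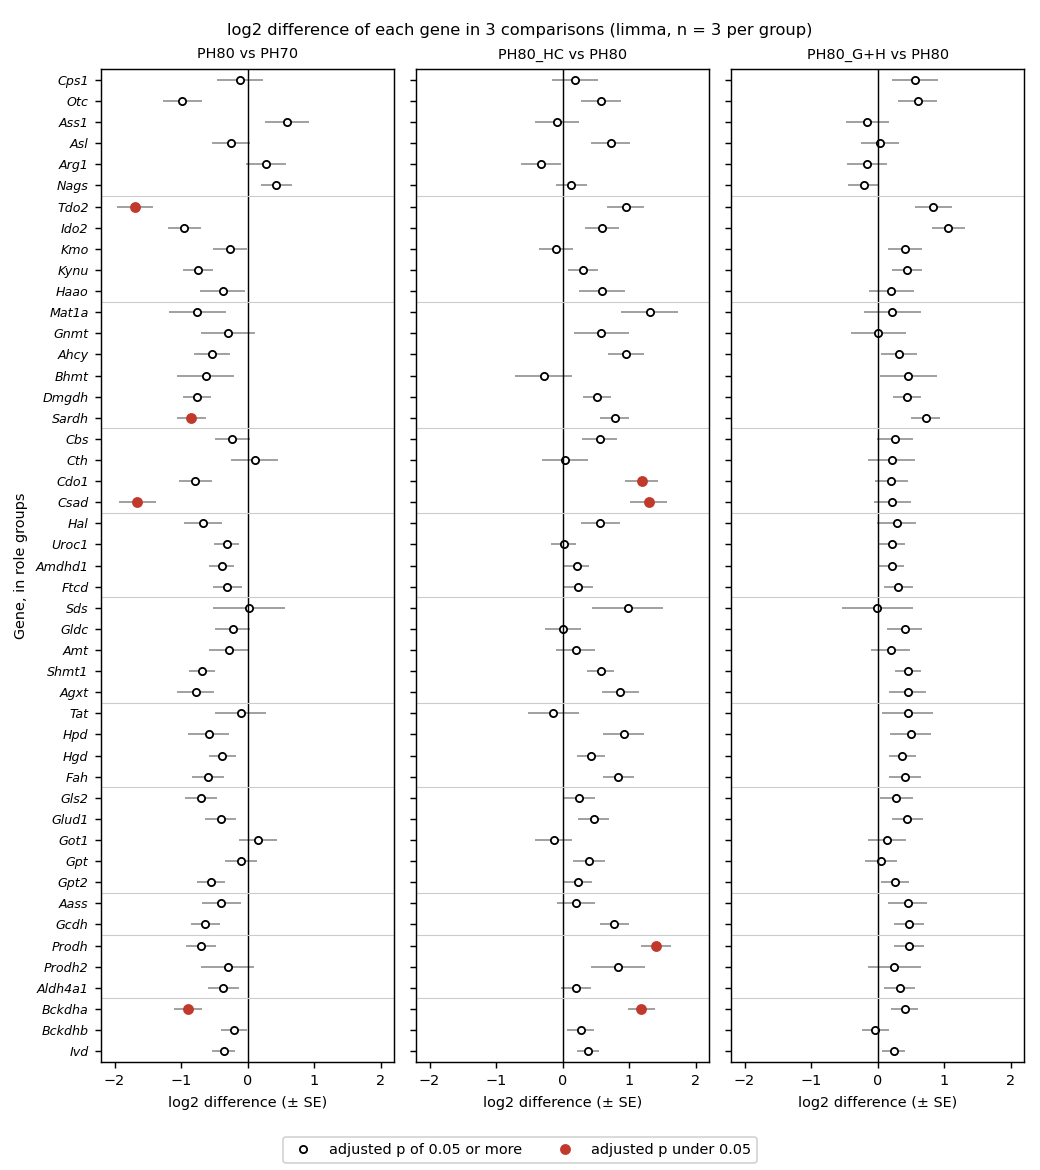
Points are log2 differences with their SE, 1 row per gene in role groups, for PH80 against PH70 and for each of the other arms against PH80; filled red points passed an adjusted p of 0.05. Most points lie left of 0 in the first panel and right of 0 in the others, which share the PH80 libraries, and the urea cycle genes scatter around 0 in all of them.

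Compared with PH70, no member was called in PH80_HC by limma, edgeR or DESeq2 (median 0.02; limma called 0.231% of all genes). Of the 47, 3 had an unadjusted p under 0.05, against 15.8% of all genes. In PH80_G+H limma and edgeR called 0 (median -0.13; limma called 0.00796% of all genes), and 4 had an unadjusted p under 0.05, against 5.97% of all genes. DESeq2 called 1, against 0.525% of all genes: Csad, which limma put at -1.44 (adjusted p = 0.120). Tdo2 remained -0.75 from PH70 in PH80_HC and -0.86 in PH80_G+H (adjusted p = 0.252 and 0.520), with no overlap in either. With libraries brought to the same total, the median in PH80_HC turned from 0.02 to -0.19. An adjusted p above the threshold does not show that these groups were alike.

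Directly compared, PH80_HC and PH80_G+H did not differ past the threshold in any member by limma (0.255% of all genes called); 7 had an unadjusted p under 0.05, near the 13.6% of all genes, edgeR called 0 and DESeq2 4, against 2.43% of all genes. Those 4 were Cdo1, Csad, Prodh and Bckdha, with limma log2 differences of 0.99, 1.07, 0.93 and 0.78. In each of them, picked by that call, all 3 PH80_HC libraries lay above all 3 of PH80_G+H. The same lack of overlap upwards was found in 7 of the 47 members and in 1095 of the 12570 genes tested. Over the 47 the median difference was 0.08, and -0.15 with libraries brought to the same total. Over the 4 groups together the F test called 4 members, Csad, Prodh, Tdo2 and Bckdha (adjusted p = 0.0167, 0.0296, 0.0297 and 0.0297), where 1.85% of all genes were called. That count was 0 without PH70 replicate 2, 1 without PH70 replicate 1 or PH80 replicate 1, and 2 without PH80 replicate 2, PH80 replicate 3, PH80_HC replicate 1, PH80_G+H replicate 1 or PH80_G+H replicate 3.

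Markers of zones and of other cell types are given beside these differences, and their part in them was not tested. Summed over 9 markers of pericentral hepatocytes, those near the central vein, the values were 90322 to 133685 in PH70, 31196 to 58797 in PH80, 111695 to 127462 in PH80_HC and 68346 to 81437 in PH80_G+H. Of the 9, 4 were called lower in PH80 than in PH70, against 2.73% of all tested genes. In PH80_HC 4 were called higher than in PH80, against 0.652%. The 8 periportal markers summed to 81311 to 108817 in PH70 and 53477 to 96393 in PH80, with 1, Cyp2f2, called lower. The zone lists are not separate from the other genes described: Sds, Hal and Gls2 of the periportal list are members. Glul, Oat and Slc1a2 of the pericentral list are among the further genes below. The 7 general hepatocyte markers summed to 3535450 to 3933200 in PH70 and 2609380 to 2958750 in PH80, with none called. Neutrophil markers, 10 genes, ran from 2811 to 10730.3 in PH70 to 12367 to 90846 in PH80, 5153 to 54426 in PH80_HC and 14633 to 20698 in PH80_G+H, with none called. Of the 10, Ly6g, Ltf and Camp were at 0 in some library. The 12 cell cycle genes summed to 7962 to 9039 in PH70 and 10523 to 20359 in PH80, again highest in PH80 replicate 2. Of the 12, Cdk1 alone was called higher, against 1.09% of all tested genes. Of the 7 bile duct markers, which summed to 1166 to 12010.2 in PH70 and 2457 to 6969 in PH80, Prom1 alone was called higher, against the same 1.09%. The 10 stellate cell markers summed to 6419 to 16454 in PH70, 8731 to 24326 in PH80, 5604 to 7786 in PH80_HC and 7872 to 12559.9 in PH80_G+H, so PH80_HC lay wholly below PH80, with no gene called between them. The 3 erythroid markers in the table summed to 1454 to 3089 in PH70 and 946 to 1269 in PH80, without overlap and with none called. Summed macrophage, endothelial and lymphocyte markers overlapped between PH80 and PH70, with none called.

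Beyond the 47 members, a list of 134 other genes of the same routes, their carriers and their regulators was followed, of which 126 were in the table and 125 were tested. Between PH80 and PH70 19 fell and 2 rose, with a median of -0.31; over all tested genes 2.73% were called lower and 1.09% higher, with a median of 0.01. The counts by role that follow are small and are read against the same shares. Hykk, hydroxylysine kinase, had a difference of -1.87 (adjusted p = 0.000929) that held in all 24 alternatives, and with Dhtkd1 and Aadat made 3 of 5 further lysine genes that fell. Psph, the last step of serine synthesis, rose by 1.11 (adjusted p = 0.0142), as did Psat1, the step before it. Of 18 further branched-chain genes tested, 16 were lower and 3 fell: Aldh6a1, Mccc2 and Pcca. Among 20 amino acid carriers 4 fell, Slc38a4, Slc1a2, Slc6a12 and Slc38a3.

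Glul, glutamine synthetase of pericentral hepatocytes, had 11062, 16753 and 16187 in PH70, 6240.1, 4236 and 9049.6 in PH80, 16988, 13704 and 18418 in PH80_HC and 11422, 9511 and 7639.9 in PH80_G+H. It fell in PH80 (log2 difference -1.22, SE 0.28, adjusted p = 0.0338) and rose in PH80_HC over PH80 (log2 difference 1.39, SE 0.28, adjusted p = 0.0377), with no overlap in either. Oat, which also marks that zone and makes glutamate semialdehyde from ornithine, differed by -0.71 in PH80 (adjusted p = 0.230), and Slc25a15, the ornithine carrier of the urea cycle, by 0.48 (adjusted p = 0.219). In PH80_HC 4 of the 125 rose over PH80, against 0.652% of all genes: Ppm1k, Slc1a2, Hykk and Glul. Ppm1k, the phosphatase that switches on the branched-chain dehydrogenase of which Bckdha is a part, rose by 1.44 (adjusted p = 0.0237). In PH80_G+H limma called none of the 125, of which 29 had an unadjusted p under 0.05, against 10.5% of all genes. The call of Glul was lost in 8 of 24 alternatives in PH80 and 14 in PH80_HC, that of Ppm1k in 6, and those of Psph and Cebpa between PH80 and PH70 in 2 and 1. Single omissions that ended a call were PH70 replicate 2, PH70 replicate 3, PH80 replicate 1 and PH80 replicate 2 for Glul in PH80, PH70 replicate 2, PH80 replicate 1, PH80 replicate 2, PH80_HC replicate 1, PH80_HC replicate 2, PH80_HC replicate 3, PH80_G+H replicate 1 and PH80_G+H replicate 3 for Glul in PH80_HC, PH80 replicate 1, PH80 replicate 3, PH80_HC replicate 1 and PH80_HC replicate 2 for Ppm1k, PH70 replicate 2 and PH80 replicate 2 for Psph and PH70 replicate 2 for Cebpa.

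Of 15 regulators 13 were lower in PH80 and 2 fell, Cebpa and Insr. Cebpa, a transcription factor that keeps hepatocytes differentiated and is known to act on several urea cycle genes, had 6628, 6798 and 6772 in PH70, 3160.1, 1692 and 3393 in PH80, 3437, 3599.9 and 3622 in PH80_HC and 5019, 4343 and 4403 in PH80_G+H (log2 difference -1.36, SE 0.23, adjusted p = 0.00814). Klf15, a factor known for driving amino acid breakdown in fasting, differed by -0.70 (adjusted p = 0.0920) and Hnf4a by -0.42 (adjusted p = 0.316). In PH80_G+H, the arm named for HNF4a, the Hnf4a values were 13577, 12742 and 10425, against 7482, 12708 and 10237 in PH80 (log2 difference 0.30, adjusted p = 0.679).

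RefSeq starts were found for 36 of the 47 members, giving 38 promoters of 250 bases, and these were searched on both strands for 6 motifs, with overlaps between matches of different motifs left in. The C/EBP motif TTGCNNAA was in 5 (Aass, Gcdh, Hal, Hgd and Prodh2), against 9.56% of 32851 promoters of the same length. TATAAA was in 4 (Ftcd, Hal, Hgd and Tdo2), against 12.4%, and the E-box CACGTG in 2 (Ass1 and Cbs), against 6.02%. The HNF4 motif CAAAGTCCA, the D-box TTATGTAA and the cAMP response element TGACGTCA were in none, against 0.384%, 0.819% and 1.55%. Among members called in a pairwise comparison and found in RefSeq's table, Tdo2 alone held a match; its window, like most of that of Bckdha, lies within an exon annotated by GENCODE and is not shown. These are matches of letters in a short window and say nothing of whether a factor binds there or elsewhere.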

How the data were processed

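Per the labels' protocols, column-purified RNA (100 ng per library) went into Illumina's TruSeq Stranded mRNA kit. The authors deposited 1 table of normalised signal, reads divided by a size factor per library; this was read from the values, since 100% of them came out as whole reads within 0.01, with size factors equal to those of the DESeq2 method. The submitters' processing notes name GRCm38, mm10 and DESeq2. Not given in the sources used here are the aligner, counting tool, annotation and strand setting.

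The 12570 of 13554 genes that reached a value of 10 in 3 or more libraries were fitted as log2(value + 1) with limma 3.58.1 in R 4.3.3, with an intensity trend, on all 12 libraries with group as the factor. In 6 comparisons and 1 F test, two-sided p-values were adjusted by Benjamini-Hochberg over all these genes, with a threshold of 0.05. A fold is 2 to the difference on this scale, and understates changes of low genes such as Ass1. On the recovered reads, edgeR 4.0.16 (quasi-likelihood) and DESeq2 1.42.0 were alternatives, among 23 planned and 1 added after the data were seen. No pair of libraries of a group agreed within counting noise, so each was counted as its own sample; this does not show that they came from separate animals.

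The members and lists were chosen with earlier results of these data known. All members are accounted for; full values are given for those called, for the 6 urea cycle genes and for the smallest p of each of 11 role groups between PH80 and PH70. Of the other genes of these routes, up to 3 per comparison with the smallest adjusted p were named, beside Glul, Oat, Slc25a15, Hnf4a, Klf15 and Cebpa, with 1 gene of that rule not reported here; others were named after their values were seen. Shared sequence was counted in 50-base windows over GENCODE transcripts, and promoter windows are RefSeq's, on GRCm38.p6, shown only outside GENCODE exons.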

Additional observations from a re-analysis of the deposited data

How the results depend on the processing

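No called difference of a member changed direction in any of the 24 alternatives run. Over the single results of the members and of a few further genes of these routes and regulators, 7644 values stayed on their side of the threshold. Of the rest 45 passed it and 87 fell back. Most of the 7644 belong to results that were not called in the main limma fit, and all of the 87 to the few that were called. The counts of members called moved more. DESeq2 called 12 members between PH80 and PH70, 11 between PH80_HC and PH80, 2 between PH80_G+H and PH80, 1 between PH80_G+H and PH70, 4 between PH80_HC and PH80_G+H and 10 in the F test. Limma with length and GC trends removed called 10 between PH80 and PH70. Libraries brought to the same total gave 2 between PH80_HC and PH80 and 2 in the F test. A fit of the compared groups only gave 0 between PH80_HC and PH80, with fewer samples in the fit, and a fit with no intensity trend gave 1 in the F test. Leaving out, in each group, the library whose values depended most on transcript length, an alternative chosen after seeing the data, gave 0 between PH80_HC and PH80 and 1 in the F test, where the fit has 8 libraries. For the other settings the cause was not tested.

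Leaving out 1 library at a time gave 0 to 6 called members between PH80 and PH70, 0 to 4 between PH80_HC and PH80, 0 to 4 in the F test and 0 in each of the other comparisons. Replicate numbers are shared between the groups by name only: the deviations of same-numbered libraries correlated from -0.367 to 0.373 over 18 pairs, 6 of them above 0.1, and 1 of 12 libraries correlated best with its own number. With the replicate block the calls were 2 between PH80 and PH70, 2 between PH80_HC and PH80 and 2 in the F test. The median over members kept its sign between PH80 and PH70 (-0.58 to -0.27), PH80_HC and PH80 (0.13 to 0.52), PH80_G+H and PH80 (0.21 to 0.35) and PH80_G+H and PH70 (-0.27 to -0.03), but not between PH80_HC and PH70 (-0.19 to 0.09) or PH80_HC and PH80_G+H (-0.15 to 0.17). Depth limits Ass1 alone among the members, with 20 to 40 normalised reads.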

Other observations

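Group means of the members came in different orders, given here as a description with no test, and the order of a gene can depend on the scaling. Highest in PH70 both as deposited and with libraries brought to the same total were Hal, Uroc1 and Amdhd1 of histidine breakdown, Otc, Tdo2 and Kynu, and Sardh, Dmgdh and Bhmt, which handle the methyl groups of betaine. The same held for Csad, Amt, Shmt1, Gls2, Gpt2 and Aldh4a1. Highest in PH80_HC under both scalings were Mat1a, Gnmt and Ahcy of the methyl group genes, with Hpd and Fah of tyrosine breakdown. So were Asl, Cbs, Cdo1, Sds, Gpt, Prodh, Prodh2 and Bckdha. The place of Gnmt leans on 1 library, with 45866, 33765 and 85436 in PH80_HC against 58051, 50284 and 25448 in PH70. Ftcd, Hgd, Bckdhb, Ivd, Haao, Agxt, Gcdh, Glud1, Nags and Got1 changed the group in which they were highest between these scalings.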
